A study of Polistes dominula with 96 samples.

Results

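LOC107068501, annotated as ejaculatory bulb-specific protein 3-like, is a gene of the chemosensory protein family of insects. It was 1 of 11140 genes counted by RNA sequencing in the brains of 96 individual European paper wasps, *Polistes dominula*, kept in nests in the laboratory. The gene was picked because its counts were higher in workers of nests with a queen than in queens. Every value of this gene that sets queens beside workers is therefore a description and has no test. That contrast did not use the individuals left in nests that had lost their queen, and the gene is tested mainly within them. It is also tested between nest kinds within queens. The contrast used the queens' values, so that test is not independent of the choice.

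The libraries came from 26 queens, 12 control workers and 58 individuals of queen removal nests. Control workers, aged 1 to 23 days, came from nests that went through a sham removal and kept their queen. Queen removal individuals had lost their queen, and 24 of them (aged 3 to 33 days) were sampled 3 days and 34 (aged 3 to 28 days) 12 days later. Queens were of 2 kinds: 14 came from control nests, and 12 were the removed queens themselves, who left their nests at removal. For 5 of the 14 the labels alone do not settle the nest kind, which is then as the study's sample table gives it. The labels give no age for queens. The paper describes foundress queens as overwintered and several months old, while workers were days or weeks old. Caste and age therefore cannot be told apart between queens and workers. Queen removal individuals had been drawn so as to span the range of ovarian development, dominance and queenness, so shares of them do not describe a whole nest. They came from 8 nests at day 3 and 10 other nests at day 12, so wasps of a nest are not independent. Each library was 1 brain, and nothing was pooled.

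Chemosensory proteins are small secreted proteins, held together by conserved cysteines, that carry hydrophobic molecules such as odorants, pheromones and lipids. Many are made in the antennae and other sense organs, and others in glands, cuticle and brain, where their ligands are mostly unknown. The name ejaculatory bulb-specific protein comes from a *Drosophila melanogaster* member of the family found in a gland of the male reproductive tract. Paper wasps use cuticular hydrocarbons to tell nestmates, rank and fertility apart, and the queen and workers of a nest differ little in body form. After a queen is lost, a worker, in this species usually an old one, can develop ovaries and take over.

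Levels are given as CPM, the counts of a gene scaled to a common library size, after TMM scaling, a correction for differences in library composition. Libraries held 7933671 to 18124755 counts. Queens' libraries ran from 7933671 to 14222806 counts and those of queen removal individuals from 9961485 to 18124755 counts. A count of 3 corresponded to between 0.162 and 0.362 CPM, which is the level that a count of 0 allows. Intervals beside single wasps are 95% exact binomial intervals and cover counting error only. Neuronal markers (nSyb, Syt1 and brp) summed to between 567.8 and 1206 CPM in every library. Markers of other tissues were present too and varied widely: 4 muscle markers summed to between 1016 and 25277 CPM, with medians of 8795 CPM (queens) and 4722 CPM (control workers), and 6 photoreceptor markers to between 91.9 and 29799 CPM. Their rho with LOC107068501 over the 58 queen removal individuals, with day and age taken out, was 0.018 for muscle and 0.16 for photoreceptors, and their part in the differences between groups was not tested. Orco, the coreceptor of odorant receptors and the marker used here for antennal tissue, had a median of only 0.528 to 1.39 CPM in the 4 groups. Single wasps reached 12.1 CPM (queens), 10.2 CPM (control workers), 9.82 CPM (day 3) and 2.15 CPM (day 12). Its rho with LOC107068501 over the 58 wasps, taken in the same way, was -0.26, and its part was not tested either. In whole brains, fewer cells that express the gene and less RNA per cell cannot be told apart.

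LOC107068501 was low in most queens and ranged from near the limit of detection to high levels in every kind of worker. In queens the level ran from 0 to 121 CPM with a median of 1.60 CPM (mean 9.46 ± 24.2, SD, n = 26). In control workers it ran from 0.528 to 529 CPM with a median of 18.2 CPM (mean 104 ± 174, SD, n = 12). The groups overlapped, and 10 of 12 control workers lay above the median queen and 3 above the highest queen.

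The range of queen removal individuals largely overlapped that of control workers at both times, although a few stood below the lowest control worker. At day 3 the level ran from 0.150 to 143 CPM with a median of 12.0 CPM (mean 32.1 ± 37.7, SD, n = 24). At day 12 it ran from 0.378 to 302 CPM with a median of 62.7 CPM (mean 82.8 ± 83.6, SD, n = 34). Of these individuals, 21 of 24 at day 3 and 29 of 34 at day 12 lay above the median queen. The share of wasps over 10 CPM was 15.4% in queens, 54.2% at day 3, 66.7% in control workers and 73.5% at day 12.

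By medians the order was queens, day 3, control workers, day 12, and by means it was queens, day 3, day 12, control workers. Queens at the bottom and day 3 next above them were common to both orders. The median of control workers was 11.3 times that of queens, that of day 3 was 7.47 times and that of day 12 was 39.1 times. On the log2 scale the mean level was 1.06 ± 2.50 in queens, 3.78 ± 2.23 at day 3, 4.32 ± 3.06 in control workers and 4.92 ± 2.78 at day 12 (SD). Neighbours among the 3 worker groups thus differed by less than the SD within either, by 0.54 between day 3 and control workers and by 0.60 between control workers and day 12. Queens and day 3 differed by 2.72, which is more than the SD within either.

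**Figure D1:**
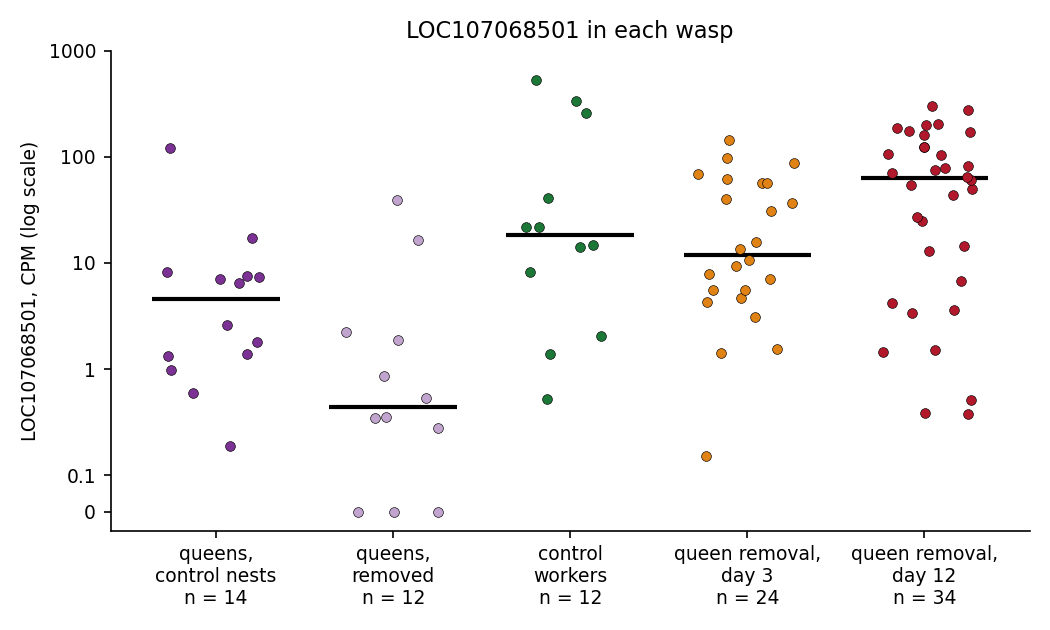
Level of LOC107068501 in each of the 96 brains, in CPM on a log scale (values of 0 are drawn at the foot of the axis), by group. Each point is 1 wasp and each bar a group median, and the medians run from 0.440 CPM in removed queens to 62.7 CPM in queen removal individuals of day 12.

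A single queen carried much of the queens' total. The queen of control nest 9 stood at 121 CPM (interval 114 to 127 CPM) and held 49.02% of the sum over all queens, and without her the mean of queens was 5.02 CPM. The next queens were those of nest 42 at 39.4 CPM, nest 16 at 17.2 CPM and nest 3 at 16.6 CPM. These 4 were the only queens over 10 CPM. At the other end, 3 removed queens had no count at all, which allows levels of up to 0.273, 0.283 and 0.362 CPM.

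Queens of control nests and removed queens were compared within queens. Queens helped to choose the gene, so the tests between both kinds are not independent of that choice. In the 14 queens of control nests the level ran from 0.188 to 121 CPM with a median of 4.54 CPM, and in the 12 removed queens from 0 to 39.4 CPM with a median of 0.440 CPM. All 3 queens without a count were removed queens, and the ranges of both kinds overlapped from 0.188 to 39.4 CPM. The log2 fold change of removed queens against queens of control nests was -1.31 (SE 0.96). Its adjusted p was 0.738 in the quasi-likelihood model of edgeR, adjusted over all genes after Benjamini and Hochberg, so the difference did not pass. It moved with single queens of either kind. It was 0.12 without the queen of nest 9 (adjusted p = 0.982 by edgeR), -2.62 without the removed queen of nest 42, who held 63.0% of the removed queens' sum (adjusted p = 0.527), and -1.19 without both (adjusted p = 0.760). On the log2 scale the mean was 1.96 ± 2.14 in queens of control nests and 0.0038 ± 2.56 in removed queens (SD), a difference of -1.96 (p = 0.0442, two-sided permutation, a test chosen after the values were seen and not adjusted over genes). No gene passed the threshold of 0.05 between both kinds of queens (0 of 10794, or 0%) by edgeR or DESeq2, while 868 genes by edgeR and 856 by DESeq2 had an unadjusted p under 0.05. Nest kind cannot be told apart from the time at which queens left their nests.

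Set beside the queen of her own nest, a worker was usually the higher of the 2. Among control nests with 1 queen and 1 worker sequenced, the worker was higher in 8 of 10 nests. Queen removal individuals of day 3 were higher than the queen that had been taken from their nest in 19 of 20 cases over 5 nests, and those of day 12 in 24 of 26 cases over 7 nests. The median of the nest was above its former queen in 5 of 5 and 7 of 7 nests. In nest 9, whose queen was the highest of all, the worker stood at 339 CPM (interval 330 to 348 CPM). In nest 54 the order was turned, with 2.61 CPM in the queen and 0.528 CPM in a worker aged 3 days. Removed queens left their nests 3 or 12 days before their nestmates were sampled, so caste and time on the nest differ together in queen removal nests.

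**Figure D2:**
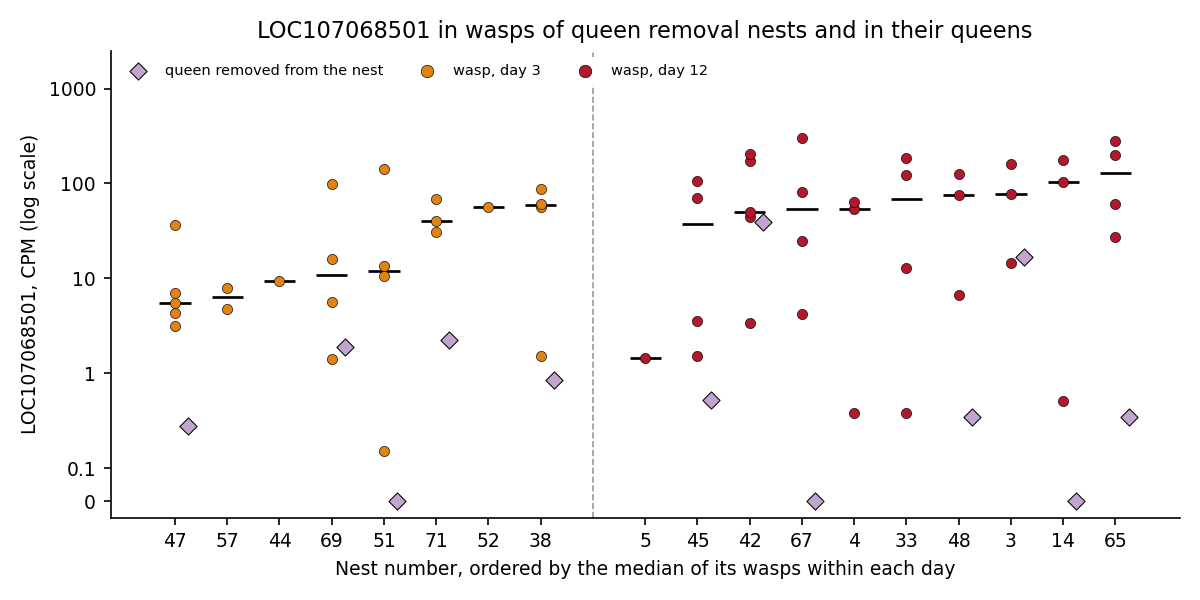
Level of LOC107068501 in wasps of the 8 queen removal nests of day 3 and the 10 of day 12, in CPM on a log scale, with nests in the order of their medians. Points are wasps, bars are nest medians, and diamonds are the queens removed from the same nests, which lie below the median of their nest in all 12 nests with a sequenced queen.

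Wasps of a nest were not shown to be more alike than wasps of different nests. Among the 55 queen removal individuals of the 15 nests with at least 2 wasps, nest took up 14.1% of the variance of the log2 level within days (p = 0.914, one-sided permutation of wasps among nests), and a share of this size is not more than random nests of these sizes take up. Inside a single nest the range was often as wide as in the whole group. In nest 51 (day 3) the wasps stood at 0.150, 10.6, 13.4 and 143 CPM. In nest 33 (day 12) they ranged from 0.378 to 187 CPM, and in nest 14 (day 12) from 0.508 to 175 CPM.

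This spread was among the widest of all genes in these brains. The SD of the log2 level within days of queen removal was 2.56 for LOC107068501, against a median SD of 0.28 over the 10794 genes tested. Only 24 of these genes had a larger SD. The gene was not faint: over the 96 libraries it averaged 52.9 CPM, and 4162 genes had a higher mean.

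In control workers the level was low in the youngest wasps, high between 16 and 17 days and low again in the oldest. The 4 workers aged 1 to 7 days had levels of 0.528 to 14.3 CPM with a median of 5.14 CPM. The 3 aged 9 to 13 days had 14.7, 22.0 and 40.6 CPM. The 2 workers aged 16 days stood at 529 CPM (interval 516 to 543 CPM) and 339 CPM, and the worker aged 17 days stood at 257 CPM. The worker aged 20 days was back at 21.6 CPM, and the oldest, aged 23 days, stood at 1.40 CPM (interval 0.864 to 2.13 CPM). A straight line through all 12 rose by 3.41 on the log2 scale per 10 days, which does not describe the fall after day 17. These workers helped to choose the gene, and the study lists it among its age-biased genes, so no test is given.

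Queen removal individuals had their highest medians at middle ages too. With wasps grouped by weeks of age, a grouping made after the values were seen, the 6 aged 3 to 7 days had a median of 6.74 CPM, the 16 aged 8 to 14 days 37.3 CPM, the 17 aged 16 to 21 days 75.1 CPM and the 19 aged 22 to 33 days 7.06 CPM. The ranges of all 4 age groups overlapped. Age and day are mixed in these groups, since 5 of the 6 youngest were of day 3 and 12 of the 17 aged 16 to 21 days of day 12. From youngest to oldest, the medians at day 3 were 7.87, 14.7, 40.2 and 6.29 CPM. At day 12 they were 3.58 (1 wasp), 88.1, 103 and 14.6 CPM. From the youngest group to the oldest, 2 of 6, 14 of 16, 13 of 17 and 9 of 19 wasps lay over 10 CPM.

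The straight-line relation to age was weak in queen removal individuals. The study's age list rests on control workers and did not use these wasps. The log2 fold change per 10 days of age, with day as a covariate, was -0.47 (SE 0.39, adjusted p = 0.544 by edgeR). It was -0.18 with the ovarian index as a covariate (adjusted p = 0.885) and -0.80 in limma voom with nest as a random effect (adjusted p = 0.469). Of all genes tested, 8.23% passed the threshold for age in these wasps, 343 of them rising (3.18%) and 545 falling. With library totals in place of TMM the split was 1243 rising and 365 falling, while LOC107068501 kept its direction at -0.42. Spearman's rho with age was -0.22 (p = 0.0794, adjusted p = 0.130 over 12 relations, two-sided permutation within days) and Pearson's r was -0.18 (p = 0.159). Without the 2 wasps farthest from the median age r was -0.20. The slope differed by -0.19 between day 12 and day 3 (SE 0.79, adjusted p = 0.949 by edgeR), and 0.0649% of genes passed for that difference.

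The age slope of queen removal individuals was 3.68 lower on the log2 scale per 10 days than that of control workers (SE 1.27, unadjusted p = 0.00511, adjusted p = 0.651 by edgeR over all genes). DESeq2 gave a difference of -3.69 with an adjusted p of 0.0877, so the slopes were not shown to differ by either tool. By edgeR 0 of 10794 genes (0%) passed this test, with 614 at an unadjusted p under 0.05, and by DESeq2 2 passed. Control workers helped to choose the gene, so this difference is not independent of that choice. The lines also cover different ages. Only 1 control worker was aged 22 days or over, against 19 queen removal individuals aged 22 to 33 days. The part of this unequal coverage in the difference was not tested.

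**Figure D3:**
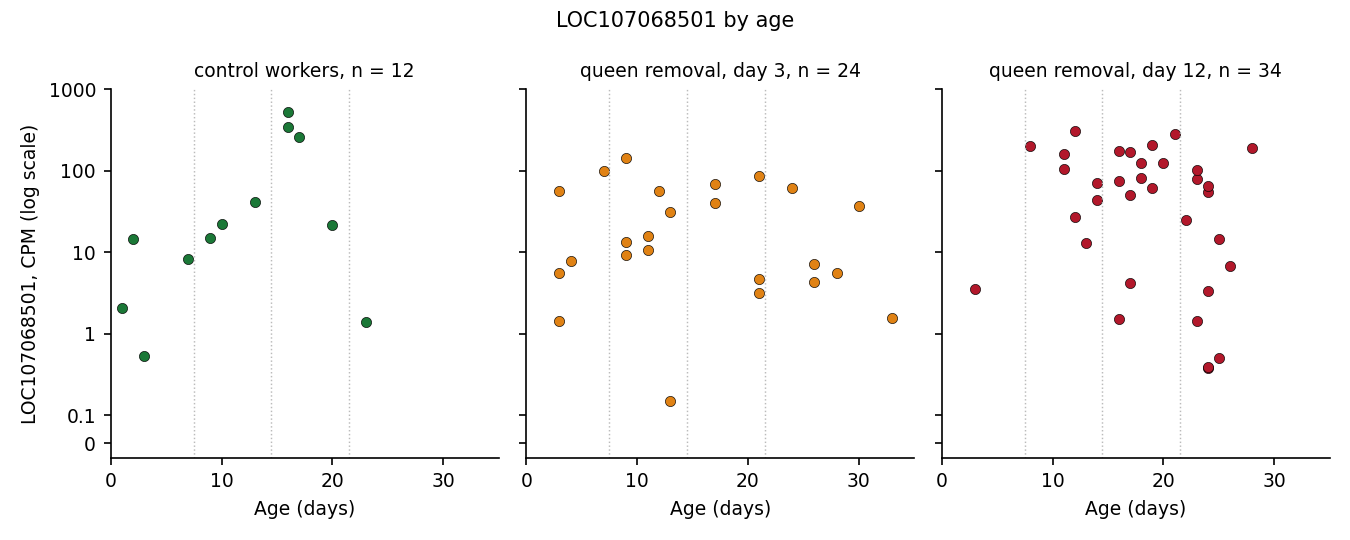
Level of LOC107068501, in CPM on a log scale, against age in days in control workers and in queen removal individuals of day 3 and day 12. Each point is 1 wasp and dotted lines separate the weeks of age, and control workers peak between 257 and 529 CPM at 16 to 17 days.

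The level 12 days after queen removal was not shown to differ from that after 3 days. The log2 fold change of day 12 against day 3 was 1.37 (SE 0.58, unadjusted p = 0.0213, adjusted p = 0.361 by edgeR), with 0.287% of genes past the threshold. The median age was 13 days at day 3 and 18.5 days at day 12. With age as a covariate the fold change was 1.51 (SE 0.54, unadjusted p = 0.00698, adjusted p = 0.318 by edgeR). In limma voom with nest as a random effect it was 1.07 (SE 0.96, adjusted p = 0.881). Over wasps the mean log2 level was 4.92 at day 12 and 3.78 at day 3, a difference of 1.14 (p = 0.1002, two-sided permutation). Over nest means, 10 against 8, the difference was 0.65 (p = 0.375, two-sided exact permutation). Without nest 65 it was 0.42, and without nest 5, which gave 1 wasp of 1.44 CPM, it was 1.08.

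At day 12, the wasps with the most developed ovaries had the lowest median level. The ovarian index measures ovarian development from images of dissected ovaries, and the 3 sets of wasps below were formed after the values were seen. In the 12 wasps of lowest index the level ran from 4.21 to 302 CPM with a median of 104 CPM, and 7 of them lay over 100 CPM. In the 11 of middle index it ran from 0.378 to 159 CPM with a median of 61.2 CPM, and in the 11 of highest index from 0.385 to 205 CPM with a median of 6.75 CPM. The 3 sets overlapped, since 2 wasps of the highest index stood at 171 and 205 CPM.

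Across the 34 wasps of day 12, Spearman's rho of level and ovarian index was -0.58 (p = 0.00035, adjusted p = 0.00264 over 12 relations) and Pearson's r of log2 level and index was -0.54 (p = 0.00103, adjusted p = 0.00618), both by two-sided permutation. Without the 2 wasps of most distant index r was -0.53. Older wasps had larger ovaries (rho of age and index 0.35), and with age taken out of both ranks rho was -0.53 (p = 0.00138, permutation). Only a straight line over the ranks of age was taken out, while the level was highest at middle ages. The median age was 17.5, 18 and 23 days in the wasps of lowest, middle and highest index. The part of this rise and fall with age in rho at day 12 was not tested. Within the 9 nests with more than 1 wasp, rho was -0.72 over 33 wasps (p = 1e-05, the smallest that 100000 permutations within nests can give). When each of the 10 nests was left out in turn, rho ran from -0.66 to -0.53. The rank relation at day 12 and these last 3 settings were all chosen with results of these data known, so they are no planned test.

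At day 3 no such relation was detected. The medians of the 8 wasps each of lowest, middle and highest index were 20.6, 6.70 and 26.3 CPM, rho was -0.08 (p = 0.713, permutation, n = 24) and r was -0.05 (p = 0.811). The difference between the slopes of both days was -0.68 per SD of the index (SE 0.53, adjusted p = 0.989 by edgeR, with 0.111% of genes past the threshold), so the days were not shown to differ. Over both days rho was -0.45 (p = 0.00088, adjusted p = 0.00264 over 12 relations, permutation within days). Pearson's r was -0.41 (p = 0.00234, adjusted p = 0.00849, permutation), and neither was a planned test.

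In the model across all genes the relation did not pass. At day 12 alone the slope was -0.76 per SD (SE 0.29, adjusted p = 0.523 by edgeR). Over both days the slope of the log2 level was -0.55 per SD of the ovarian index (SE 0.25, unadjusted p = 0.0334, adjusted p = 0.455 by edgeR), and 0.269% of genes passed. The size of the slope depended on the model. With age and its square as covariates it was -0.62 over both days (SE 0.28, adjusted p = 0.848 by edgeR). It was -1.19 with nest as a fixed block (adjusted p = 0.174 by edgeR) and -1.44 in limma voom with nest as a random effect, where it passed the threshold (SE 0.34, adjusted p = 0.0336). The summed level of 5 fat body markers (Hex110, Hex70a, Hex70c, apolpp and Vgn), of which Hex110 and Hex70c had a median under 1 CPM, also moved with the index at day 12 (rho 0.51). The sum ran from 1219 to 13446 CPM at day 12 and from 1500 to 18401 CPM at day 3, and its rho with LOC107068501 over the 58 wasps, with day and age taken out, was -0.30. Library size had rho of 0.21 with the level over the 58 wasps and of -0.20 with the index at day 12. The part of the markers and of library size in the result was not tested.

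**Figure D4:**
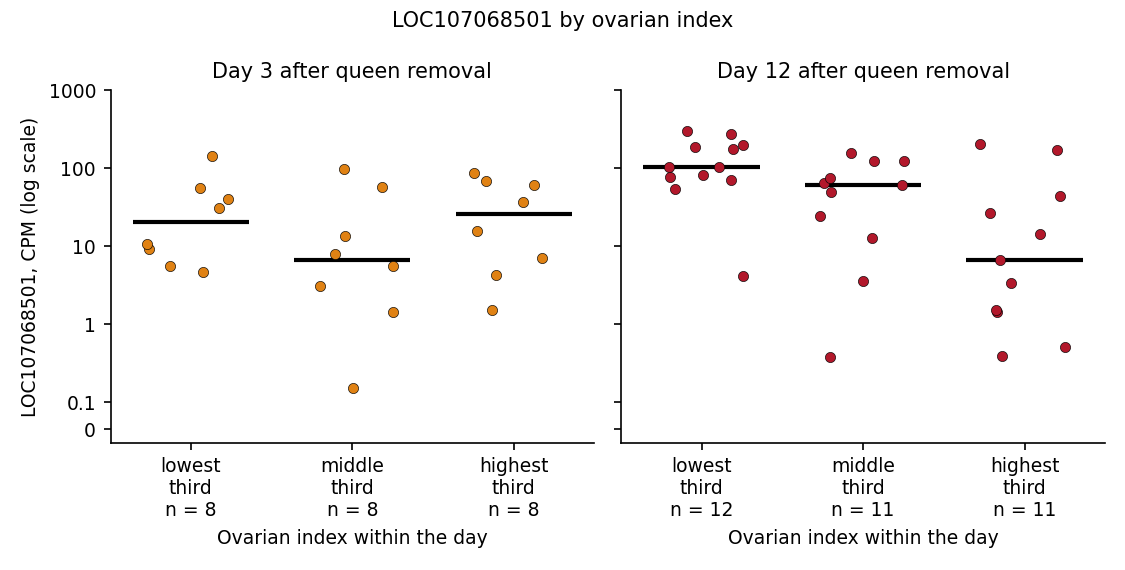
Level of LOC107068501, in CPM on a log scale, in queen removal individuals of day 3 and day 12 split into 3 sets of rising ovarian index within each day. Points are wasps and bars are medians, which fall from 104 to 61.2 and 6.75 CPM at day 12.

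Queenness, the study's caste score built from ovarian index and dominance, gave nearly the same order of wasps as the ovarian index (rho 0.98 at either day), so it is not a second line of evidence. At day 12 the 13 wasps with a queenness over 0.5 had a median of 6.75 CPM, and 7 of them stood under 10 CPM. The 21 wasps at or under 0.5 had a median of 81.7 CPM, and 2 of them stood under 10 CPM. Spearman's rank correlation with queenness was -0.56 at day 12 (p = 0.00069, adjusted p = 0.00264 over 12 relations, permutation) and -0.11 at day 3 (p = 0.620). Pearson's r was -0.57 at day 12 (p = 0.00044, adjusted p = 0.00528), -0.56 without the 2 most distant wasps, and 0.015 at day 3 (p = 0.945, permutation). Only 3 wasps of day 3 had a queenness over 0.5, and they stood at 1.54, 36.6 and 68.4 CPM.

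For all genes at once the slope on queenness was -0.55 per SD over both days (SE 0.27, adjusted p = 0.537 by edgeR, with 0.454% of genes past the threshold). It was -1.56 with nest as a random effect in limma voom (adjusted p = 0.04), and by edgeR it was 0.070 at day 3 alone (adjusted p = 0.996) and -0.94 at day 12 alone (SE 0.33, adjusted p = 0.347). Dominance, measured as Elo rating from interactions on the nest, was compared in the same way. Spearman's rank correlation was -0.30 over both days (p = 0.0197, adjusted p = 0.0473 over 12 relations, permutation within days), -0.32 at day 12 (adjusted p = 0.130) and -0.22 at day 3 (adjusted p = 0.413). Pearson's r over both days was -0.34 (p = 0.00738, adjusted p = 0.0177, permutation), and -0.37 without the 2 most distant wasps. By day r was -0.39 at day 12 (adjusted p = 0.0413, permutation) and -0.28 at day 3 (adjusted p = 0.244). The slope was -0.53 per SD (SE 0.25, adjusted p = 0.999 by edgeR, with 0.176% of genes past the threshold), and -1.13 in limma voom with nest as a random effect (adjusted p = 0.613).

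Few genes rose and fell with LOC107068501 from wasp to wasp. Among 8636 other genes with a mean of at least 5 CPM, the 5 of highest absolute Spearman's rho were the same over all 96 libraries and over the 58 queen removal individuals with day and age taken out. The median absolute rho over all genes was 0.12 in either set. These correlations are a description over libraries that share their depth and nests, and they have no p.

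The closest was LOC107065115, a circadian clock-controlled protein-like gene, a product name given to members of the insect takeout family, which resemble juvenile hormone-binding proteins. Its rho was 0.83 over 96 libraries and 0.86 over the 58 wasps, and it was positive inside each group, from 0.68 in queens to 0.87 at day 3. Its level ran from 27.3 to 1385 CPM in queens (median 169 CPM) and from 70.6 to 5513 CPM at day 12 (median 1147 CPM). Its ranges in queens and at day 12 overlapped from 70.6 to 1385 CPM.

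The other 4 had rho between 0.75 and 0.77 over the 96 libraries. LOC107070237 encodes sensory neuron membrane protein 1, which in flies is needed for the detection of a fatty-acid-derived pheromone. It had rho of 0.77 over 96 libraries, and its median was 1.23 CPM in queens, 4.71 CPM in control workers, 6.74 CPM at day 3 and 8.90 CPM at day 12. LOC107065842 (emp, scavenger receptor class B member 1) belongs to the same CD36 family of lipid-binding membrane proteins and had rho of 0.77. LOC107072089 (Ada2b, transcriptional adapter 2B) and LOC107070749, an ABC transporter of sub-family G whose mammalian namesake exports sterols, had rho of 0.75 each. The lowest rho of all genes was that of Kr-h1, a juvenile hormone-responsive transcription factor, at -0.57 over 96 libraries, and it is named after its value was seen. Queens and control workers, whose difference chose the gene, are among the 96, so this rho is not independent of that choice.

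The 3 other chemosensory protein genes found by product name or symbol had far lower rho with LOC107068501 than the closest genes. Unnamed members of the family were not searched for. In the reference gene table LOC107068500, with the same product name, lies next to LOC107068501, so reads shared between these copies could have been split by the counting. The family also holds LOC107068616, named ejaculatory bulb-specific protein 3, and CSP2 (LOC107072403) was added by its symbol. Their rho with LOC107068501 was 0.11, 0.05 and 0.17 over 96 libraries, which include the castes whose difference chose the gene. Over the 58 queen removal individuals, with day and age taken out, it was 0.26, 0.21 and 0.16. The median absolute rho over all genes was 0.12 there. CPM is not corrected for gene length, so levels are compared below only within a gene.

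Both named copies were higher in queens, the reverse of LOC107068501. LOC107068500 ran from 3.20 to 253 CPM in queens (median 35.05 CPM) and from 2.40 to 29.4 CPM in control workers (median 9.69 CPM), and control workers against queens gave -1.86 on the log2 scale (SE 0.42, edgeR adjusted p = 0.000505). LOC107068616 ran from 3.85 to 1453 CPM in queens (median 220 CPM) and from 3.90 to 99.1 CPM in control workers (median 29.3 CPM), and the same contrast gave -2.96 (SE 0.52, edgeR adjusted p = 8.48e-06). CSP2 did not pass, with medians of 97.3 CPM in queens and 97.6 CPM in workers and a contrast of 0.07 (SE 0.17, edgeR adjusted p = 0.800). Thus 2 of these 3 genes were lower in control workers, where 22.9% of all genes passed in either direction and 11.8% were lower. Product names came from the study's tables, which hold genes chosen on these samples, so this list is not independent evidence of a direction.

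**Figure D5:**
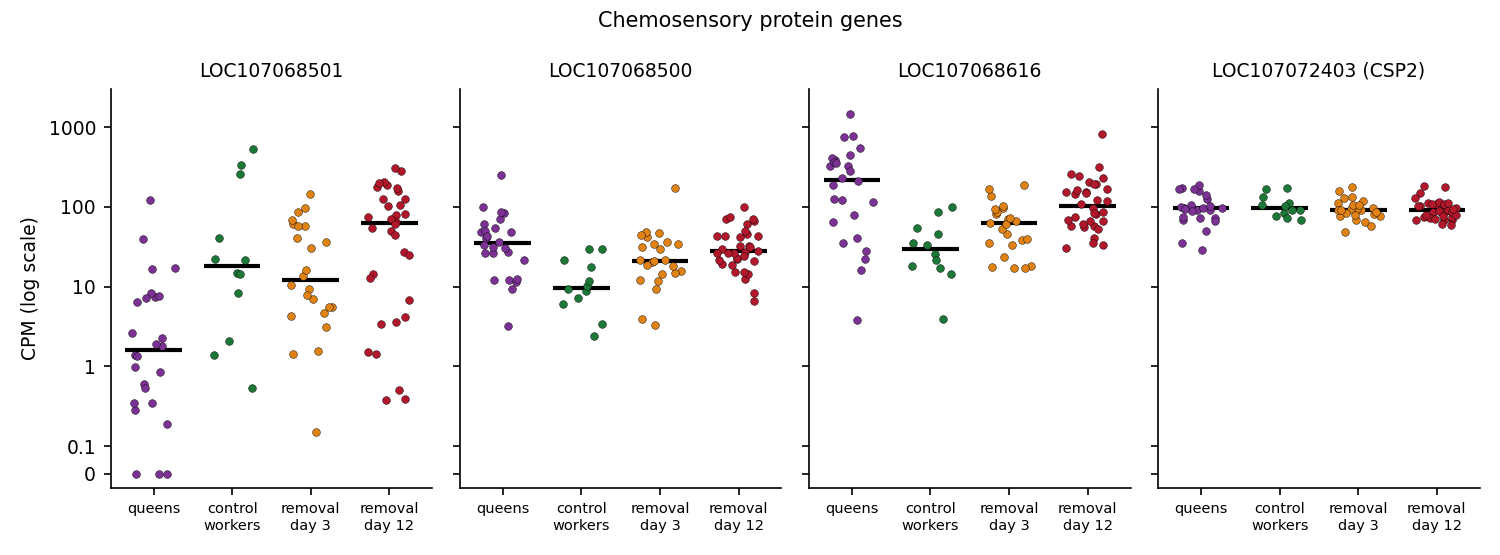
Levels of LOC107068501 and 3 other chemosensory protein genes in queens, control workers and queen removal individuals of day 3 and day 12, in CPM on a log scale and not corrected for gene length. Points are wasps and bars are medians, and only LOC107068501 has its lowest median, 1.60 CPM, in queens.

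After queen removal both copies had medians between those of control workers and queens. LOC107068500 had medians of 21.2 CPM at day 3 and 27.6 CPM at day 12, and LOC107068616 of 62.0 and 103 CPM. The log2 fold changes of queen removal individuals against control workers were 1.31 (SE 0.38, adjusted p = 0.0747 by edgeR) and 1.36 (SE 0.44, adjusted p = 0.107), with 0.278% of genes past the threshold. For CSP2 this contrast was -0.15 (edgeR adjusted p = 0.671). With the ovarian index their slopes were 0.34 and 0.33 per SD for the copies (SE 0.12 each, adjusted p = 0.277 and 0.294 by edgeR) and -0.08 for CSP2 (adjusted p = 0.688). None of the 3 passed for age, ovarian index, Elo rating, queenness or day in queen removal individuals.

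Among the other genes of smell and taste, changes were scattered. The lists hold only genes with a product name or symbol, and unnamed members of these families were not searched for. Product names came from the study's lists of genes chosen on these samples. Counts between castes are therefore not independent evidence of a direction. Between control workers and queens, 4 of 15 odorant receptors tested were higher in workers (11.1% of all genes were) and none was lower, among them LOC107068888 (1.57 on the log2 scale, SE 0.32, edgeR adjusted p = 0.000148). Obp11, 1 of 5 odorant-binding proteins tested, was higher in workers (0.29, SE 0.10, adjusted p = 0.0218). The gustatory receptor 68a-like gene LOC107066788 was the 1 of 3 gustatory receptors that was lower in workers (-1.48, SE 0.26, adjusted p = 1.26e-05 by edgeR), and 0 of 4 ionotropic receptors passed. The median log2 fold change was 0.03 for odorant receptors, -0.19 for odorant-binding proteins and 0.01 over all genes.

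In queen removal individuals, Orco and Obp10 fell with age. The log2 fold change per 10 days was -0.94 for Orco (SE 0.25, adjusted p = 0.00951 by edgeR) and -0.26 for Obp10 (SE 0.06, adjusted p = 0.00304). Orco's medians were low, and its highest wasp stood at 9.82 CPM at day 3 and 2.15 CPM at day 12. Day 12 against day 3 gave -1.60 for Orco (SE 0.40, adjusted p = 0.0502 by edgeR). Orco and Obp10 were 1 of 15 odorant receptors and 1 of 5 odorant-binding proteins, where 5.05% of all genes fell. Of the 2 juvenile hormone carriers, Jhbp16 was lower in control workers than in queens (-3.18, SE 0.83, adjusted p = 0.00301 by edgeR). In queen removal individuals Jhbp16 rose with age (1.92, SE 0.34, adjusted p = 5.93e-05) and Jhbp2 fell (-1.28, SE 0.42, adjusted p = 0.0429). Jhbp16 also rose with the ovarian index (1.48 per SD, SE 0.26, adjusted p = 0.000336 by edgeR), Elo rating and queenness, for which 0.185%, 0.167% and 0.278% of all genes rose. Its counts were few, with medians of 0.614 CPM in queens and 0 in control workers, and Jhbp2 had a median of 0 in every group. No odorant receptor, odorant-binding protein, gustatory or ionotropic receptor passed for the ovarian index, Elo rating, queenness or day.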

How the data were processed

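Brain RNA of 96 *P. dominula* females was sequenced as 1 library per wasp. Ribosomal reads were taken out (SortMeRNA), adapters and poor bases trimmed (Trimmomatic 0.36), and reads aligned by STAR 2.7 and assigned to genes by StringTie2. The authors deposited raw counts per gene, without normalization. Of 11335 entries, 194 that repeated a gene ID were summed, which gave 11140 genes. The 1 entry without a gene name (0.0216% to 0.0706% of a library) was left out. No 2 libraries were copies (highest correlation 0.984). Libraries held 7933671 to 18124755 counts, so 3 counts equal at most 0.362 CPM.

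A gene was tested if its counts in any of the 4 groups added up to more than 20 (10794 genes). Tests used edgeR 4.0.16 (TMM, quasi-likelihood, Benjamini-Hochberg, threshold 0.05) in R 4.3.3, with DESeq2 1.42.0 and limma 3.58.1 as alternatives, and were checked on simulated data with known changes. Days were compared in 1 fit of 4 groups, and slopes in queen removal individuals had day as covariate. Single-gene relations used 100000 permutations (scipy 1.17.1) within days, on log2 CPM with a prior count of 2. Ovarian index, Elo rating, queenness and nest came from the study's sample table. Queens were split by the treatment of their nest, read from nest numbers, and 1 wasp of day 3 with an unclear nest number was placed where the study lists her. Replicate numbers did not pair wasps of day 3 and day 12. Named were the gene, its family by product name, up to 4 members of each other list, and the 5 genes of highest absolute rho (mean of at least 5 CPM). Gene symbols were looked up in the reference table of assembly Pdom_raw_medaka (10144 IDs matched, 4065 with a symbol, 4395 with a product name from the study's tables). The gene, lists and tests were chosen with earlier results of these data known.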

Additional observations from a re-analysis of the deposited data

Results flagged for a closer look

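Groups of 4 to 10 wasps were checked for a single value far from the others, and 4 of 11 had one, where chance gives about 1 in 20 for normally distributed values. The CPM of this gene are strongly skewed, so single high values come up more often than that and the number has no further weight. Each of the 4 was a wasp far above her group, on the linear CPM scale. Among the 5 control workers sampled at day 12, the highest stood at 529 CPM and the next at 40.6 CPM. Among the 5 wasps of queen removal nest 47 (day 3), the highest, aged 30 days, stood at 36.6 CPM and the next at 7.06 CPM. In nest 51 (day 3, 4 wasps) a wasp aged 9 days stood at 143 CPM and the next, of the same age, at 13.4 CPM. In nest 69 (day 3, 4 wasps) a wasp aged 7 days stood at 98.0 CPM and the next at 15.9 CPM.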

How the results depend on the processing

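A few results changed call or direction. The slope on the ovarian index was -1.44 and that on queenness -1.56 with nest as a random effect in limma voom, both past the threshold (adjusted p = 0.0336 and 0.04). The slope on queenness turned to 0.070 at day 3 alone, and the difference between both kinds of queens to 0.12 without the queen of the highest level. Between both kinds of queens the permutation of mean log2 levels, chosen after seeing the data, gave -1.96 (p = 0.0442). It used values that helped to choose the gene. Leaving out each of 18 nests in turn gave slopes of -0.61 to -0.31 for age and -0.79 to -0.46 for the ovarian index, none past the threshold, and rho at day 12 of -0.66 to -0.53 over 10 nests. The other alternatives, among them DESeq2, no filter, library totals and age as a covariate, changed neither direction nor call. Between both kinds of queens DESeq2 gave -1.33 but no p for this gene, so it made no call there. Settings for the ovarian index other than DESeq2 and age as a covariate, those for Elo rating and queenness by nest or by day, the means without the highest wasp, the differences between queens without the highest removed queen or the highest of either kind, the permutation of nest means and the test of the ovarian slope between days were chosen after seeing the data. A filter on more than 20 counts in every wasp of a group dropped the gene, so that setting has no value.

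Same-numbered wasps of day 3 and day 12 share only a number: over 24 pairs their deviations correlated by -0.16 to 0.35, with 7 over 0.1. With the replicate block the difference between days was 1.03 (48 wasps, adjusted p = 0.615 by edgeR), and 9 genes passed in place of 31.

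Counts of genes past the threshold also moved. For age 888 genes passed, against 1608 with library totals, 367 with nest as a fixed block, 392 at day 3 alone, 290 at day 12 alone and 580 with the ovarian index as a covariate. For the ovarian index 29 passed, against 16 with age, 17 with age and its square, 64 by DESeq2 and 4 at day 3 alone, and 44 and 46 without nests 42 and 47. For queenness 49 passed, against 22 with age, 75 by DESeq2, and 12 and 30 at day 3 and day 12 alone. For Elo rating 19 passed, against 10 and 6 at day 3 and day 12 alone. Between days 31 passed, against 13 with age and 0 with nest as a random effect in limma voom (703 at an unadjusted p under 0.05). For the age slope between days 7 passed, against 29 by DESeq2, and for the ovarian slope between days 12, against 2 with age. With library totals the split of genes rising and falling with the ovarian index was 25 and 6 in place of 20 and 9, and between days 14 and 12 in place of 12 and 19.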
